A study of Mus musculus with 25 samples.

Results

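The interferon-stimulated genes described here are 41 genes that cells switch on when an interferon binds its receptor. They were chosen by name, and for each the probe set annotated to that gene alone was used, with the brightest taken where a gene had several. A probe set of this kind existed for 40 of the 41 among 30627 genes on the array, and Ifi44 had none. The dorsal root ganglion, which holds the cell bodies of sensory neurons with their satellite glia and resident macrophages, was profiled in male C57BL/6 mice from the lumbar ganglia of L3-L5. DMM mice had the medial meniscus of the right knee destabilised at 10 weeks of age, a surgical model of osteoarthritis. Sham mice had sham surgery on the same knee at that age, and naive mice were left untreated. Ganglia were taken 4, 8 and 16 weeks after surgery, when mice of all 3 treatments were 14, 18 and 26 weeks old, so that time after surgery and age run together. Each of the 9 groups of treatment by time held 3 arrays, except sham at 8 weeks, which held 1 because its other samples failed quality control. The labels do not say whether an array held 1 mouse or a pool, so p-values measure the spread between these samples.

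Type I interferons act through a receptor paired with the kinases JAK1 and TYK2, and a complex that holds STAT2 and IRF9 then binds the interferon-stimulated response element in the promoters of its targets. Interferon gamma acts through its own receptor and on the gamma-activated site, and induces a partly different set that includes guanylate-binding proteins. Many of the genes restrict viruses, and several (Irf7, Stat2, Irf9, Isg15, Usp18) feed back on the pathway itself. Sensory neurons carry type I interferon receptors, and interferons have been studied in mouse dorsal root ganglia for their effects on pain.

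The element that names the genes can be read in their promoters. RefSeq promoters (GRCm38.p6), from 250 bases before to 50 bases after the transcript start, were at hand for 30 of the 41 genes. The letters GAAANNGAAA of the response element, on either strand, stood in a promoter of 16 of these 30 genes (53.3%), against 3.99% of the 27025 genes in the table. The letters TTCNNNGAA of the gamma-activated site stood in 7 of the 30 (23.3%), against 9.55% of all genes, and in Bst2 and Ifitm3 a match to the second motif overlapped one to the first. By promoter, 3.44% of 32851 held the first motif and 8.30% the second. Samd9l, Oasl2, Irf7, Irf9 and Ifi35 held no match to the response element in this window. The promoters of 5 genes named in the results below, all of which hold a match, are printed 5′ to 3′ on the strand of the gene. Each match to the response element is in capitals. Positions count from the transcript start as 1, with negative numbers before it.
Bst2, chr8:71537423-71537722, minus strand, with overlapping matches that start at -130 and -124: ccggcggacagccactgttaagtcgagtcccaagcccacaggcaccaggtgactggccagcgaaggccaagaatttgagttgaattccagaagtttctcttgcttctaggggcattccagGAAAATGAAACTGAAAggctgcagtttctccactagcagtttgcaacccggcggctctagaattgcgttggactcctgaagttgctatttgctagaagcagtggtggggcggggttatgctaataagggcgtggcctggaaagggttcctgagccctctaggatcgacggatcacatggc
Ifit1, chr19:34640639-34640938, plus strand, with matches at -104 and -85 that read as their reverse complement: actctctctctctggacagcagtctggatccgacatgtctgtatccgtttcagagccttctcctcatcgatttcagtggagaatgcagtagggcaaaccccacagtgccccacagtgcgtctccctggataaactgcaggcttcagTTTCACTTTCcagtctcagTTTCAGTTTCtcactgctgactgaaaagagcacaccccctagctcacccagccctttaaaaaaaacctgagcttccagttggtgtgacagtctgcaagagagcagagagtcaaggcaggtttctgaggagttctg
Isg15, chr4:156200769-156201068, minus strand, with 3 overlapping matches at -78, -72 and -66: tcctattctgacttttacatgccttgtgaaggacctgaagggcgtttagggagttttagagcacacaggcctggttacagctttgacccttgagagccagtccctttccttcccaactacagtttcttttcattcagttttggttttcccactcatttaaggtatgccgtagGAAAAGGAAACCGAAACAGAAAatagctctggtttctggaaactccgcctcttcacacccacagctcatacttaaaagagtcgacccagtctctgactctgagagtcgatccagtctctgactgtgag
Oas1a, chr5:120907476-120907775, minus strand, with overlapping matches at -20 and -14: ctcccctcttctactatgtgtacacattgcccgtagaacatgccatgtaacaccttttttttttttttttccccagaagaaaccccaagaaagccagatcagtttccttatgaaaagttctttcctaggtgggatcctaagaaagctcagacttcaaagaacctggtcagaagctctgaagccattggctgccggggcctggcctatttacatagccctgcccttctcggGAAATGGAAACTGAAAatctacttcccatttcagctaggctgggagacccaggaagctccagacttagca
Gbp2, chr3:142620413-142620712, plus strand, with 1 match at -59 that reads as its reverse complement: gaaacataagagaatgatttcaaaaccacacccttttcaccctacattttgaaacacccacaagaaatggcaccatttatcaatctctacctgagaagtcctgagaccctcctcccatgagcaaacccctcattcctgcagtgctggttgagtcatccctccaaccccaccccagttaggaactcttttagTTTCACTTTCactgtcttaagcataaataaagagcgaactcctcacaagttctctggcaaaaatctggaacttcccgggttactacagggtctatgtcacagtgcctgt

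All levels are log2 intensities, on which 1 unit is a doubling, and a probe set's brightness depends on its probes as well as on RNA, so brightness does not order genes by abundance. Array medians lay between 4.88 and 4.97, and arrays of a group correlated at 0.993 to 0.998 over the genes tested. The tissue label was borne out by sensory neuron markers, with array means of 16.3 for the sodium channel gene Scn10a, 16.4 for peripherin (Prph) and 15.2 for advillin (Avil). A gene entered the tests when it averaged over 4.567 across the 25 arrays, a limit that 40% of probe sets stayed under. Of the 40 genes, 38 passed this limit, and Oas3 (mean 4.24) and Mx1 (mean 4.35) did not. On single arrays the median negative control probe set lay between 5.06 and 5.35, so the levels of Oasl1 (mean 4.94), Oas2 (5.06), Zbp1 (5.10), Isg15 (5.13) and Dhx58 (5.28) were no brighter than those controls. Probe sets well above that level included those of Ifitm3 (mean 11.27), Lgals3bp (11.21), Ifi27 (10.63) and Stat2 (10.39). Genes with close relatives (Oas1a and Oas1g, Ifit1 and Ifit3 with their copies, the Gbp family, Ifi27l2a) may share probe signal with them, and are uncertain to that extent.

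The mean over the 40 genes gives a first view of every group. At 4 weeks it was 7.44 ± 0.17 in DMM, 7.39 ± 0.22 in sham and 7.59 ± 0.07 in naive ganglia (SD, n = 3 each). At 8 weeks it was 7.35 ± 0.17 in DMM ganglia (n = 3), 7.24 on the lone sham array and 7.23 ± 0.09 in naive ganglia (n = 3). At 16 weeks it was 7.56 ± 0.39 in DMM, 7.28 ± 0.07 in sham and 7.19 ± 0.03 in naive ganglia (n = 3 each). The wide spread of DMM ganglia at 16 weeks came from arrays at 7.22, 7.46 and 7.98, the first of which lay among the sham arrays (7.22 to 7.36). Naive arrays at 4 weeks (7.53 to 7.66) lay above all naive arrays at 8 weeks (7.13 to 7.29) and 16 weeks (7.16 to 7.21). Within the 4-week and the 8-week set, arrays of DMM, sham and naive ganglia overlapped.

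**Figure D1:**
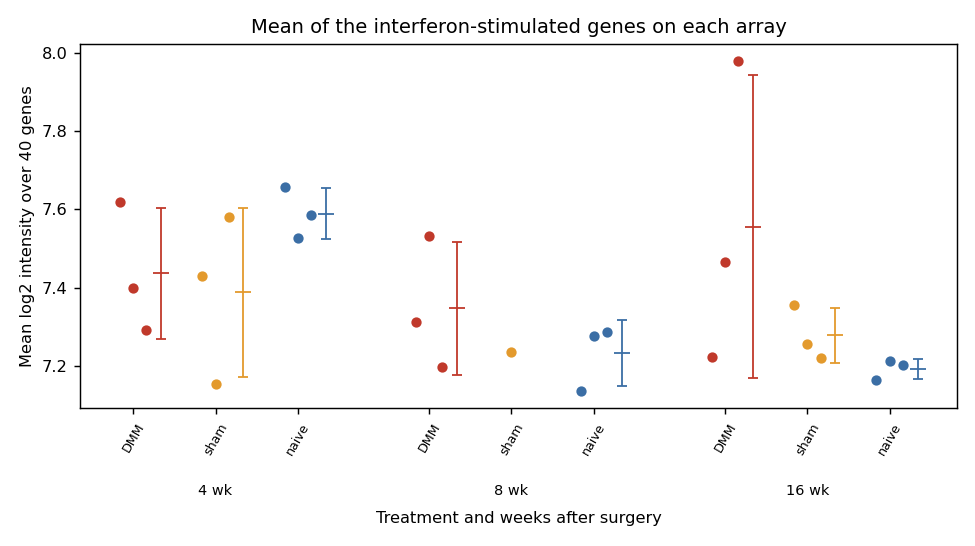
Mean log2 intensity over the 40 interferon-stimulated genes on each array (points), with the mean and SD of each group (bars beside the points, n = 3; sham at 8 weeks is 1 array with no bar), by treatment and weeks after surgery. Naive arrays at 4 weeks sit between 7.53 and 7.66, above all naive arrays of later times, and replicate 3 of DMM at 16 weeks stands at 7.98.

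The clearest difference among these genes lay between naive mice of different ages. The labels name no batch, so age cannot be told apart from anything else that arrays of the same age shared. In naive ganglia 11 of the 38 genes tested were lower at 16 weeks (mice of 26 weeks) than at 4 weeks (mice of 14 weeks), and 0 were higher (limma, Benjamini-Hochberg over 20206 genes, adjusted p under 0.05). That share of 28.9% stands beside 18.8% of all genes tested called in either direction, and 12.7% called lower. Over all 40 genes, 37 were lower at 16 weeks, with a median difference of -0.34 on the log2 scale, against -0.07 over the genes tested. For 25 of the 38 genes every 16-week array was lower than every 4-week array, against 26.2% of genes tested. At an unadjusted p under 0.05, 16 of the 38 were lower, against 22.7% of genes tested.

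Bst2, or tetherin, which holds budding virus particles at the cell surface, had log2 levels of 7.13, 6.84 and 6.63 in naive ganglia at 16 weeks, against 8.31, 8.66 and 8.33 at 4 weeks. The groups lay more than 1 log2 unit apart, and Bst2 fell by 1.57 on the log2 scale, which is 2.96-fold (SE 0.28, adjusted p 0.00120). Ifit1, whose protein binds viral RNA, had 8.19, 8.45 and 8.60 at 16 weeks, against 10.87, 9.20 and 10.26 at 4 weeks, and fell 3.24-fold (log2 difference -1.70, SE 0.51, adjusted p 0.0250). Its 4-week arrays spread over more than 1 unit, and its call was lost when any array but naive replicate 2 at 4 weeks or replicate 3 at 16 weeks was left out.

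Of the OAS family, whose enzymes make oligoadenylates that activate RNase L, 3 of 5 genes fell. Oas2 had 4.69, 4.90 and 4.79 at 16 weeks, against 5.23, 5.35 and 5.42 at 4 weeks (log2 difference -0.54, adjusted p 0.00623). Oas1a had 5.60, 5.87 and 5.76 at 16 weeks, against 6.45, 6.02 and 6.20 (-0.48, adjusted p 0.0285). Oasl2 had 7.99, 8.02 and 7.99 at 16 weeks, against 9.26, 8.63 and 9.07 (-0.99, adjusted p 0.0440). None of these 3 genes overlapped between the ages. Of the others, Oasl1 differed by -0.15 and missed the threshold, and Oas3 was under the brightness limit.

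Among sensors and transducers, Ddx58, which encodes the RNA sensor RIG-I, had 8.12, 8.32 and 8.23 at 16 weeks, against 9.05, 8.56 and 8.86 at 4 weeks (-0.60, adjusted p 0.0124). Irf9, the DNA-binding partner of STAT2, had 6.42, 6.49 and 6.41, against 6.96, 6.67 and 6.87 (-0.39, adjusted p 0.0389). Both genes were lower on every 16-week array. Their neighbours in the pathway missed the threshold: Irf7 differed by -0.39 and Stat2 by -0.18 with overlapping arrays for Stat2. The RNA sensors Ifih1 (MDA5) and Dhx58 (LGP2) and the nucleic acid sensor Zbp1 differed by -0.22, -0.08 and -0.05.

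Of 6 genes listed under no other role, 3 fell. Samd9l, an interferon-induced antiviral gene, had 7.72, 7.88 and 7.94 at 16 weeks, against 8.38, 8.39 and 8.34 at 4 weeks (-0.52, adjusted p 0.00461). Trim30a, a ubiquitin ligase that restrains Toll-like receptor signalling in mice, had 5.78, 5.90 and 5.63, against 6.17, 6.20 and 6.10 (-0.39, adjusted p 0.00935). Ifi35 had 6.52, 6.62 and 6.54, against 6.98, 6.82 and 6.98 (-0.36, adjusted p 0.0119). In each the naive 4-week arrays stood close together and above all 16-week arrays. The 11th gene was Isg15, the ubiquitin-like modifier, with 4.96, 4.86 and 4.87 at 16 weeks, against 5.14, 5.33 and 5.22 (-0.33, adjusted p 0.0475), and it is named here after its values were seen. Usp18, which strips ISG15 from proteins, had 5.51, 5.75 and 5.98, against 7.21, 6.22 and 6.74, and with a difference of -0.98 it missed the threshold (adjusted p 0.107). The small hydrophobic protein gene Ifi27l2a likewise had 6.14, 6.02 and 6.15, against 7.56, 6.78 and 7.11 (-1.05, adjusted p 0.183).

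The count of 11 rested on few arrays. So did calls over all genes, as the 12.7% called lower fell in every fit without 1 array. The count became 5 without naive replicate 1 at 4 weeks (8.63% of genes tested called lower) and 6 without replicate 3 at 4 weeks (7.73%). It was 5 without replicate 1 at 16 weeks (6.94%), 7 without replicate 2 (9.80%) and 7 without replicate 3 at 16 weeks (10.2%). Without replicate 2 at 4 weeks it was 12 (10.8%). Bst2, Samd9l, Oas2, Trim30a and Ifi35 were called in each of these 6 fits. The other extreme of the 40 genes was Cmpk2, a mitochondrial nucleotide kinase, with a difference of 0.13 and adjusted p 0.237, and the adjoining Rsad2 (viperin) differed by -0.01.

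Macrophage markers moved in the same comparison. All 10 were above the brightness limit, 8 of the 10 fell and the other 2 were lower, with a median difference of -0.65. Their mean log2 level ran from 6.46 to 6.58 in naive ganglia at 16 weeks and from 7.09 to 7.42 at 4 weeks. The complement gene C1qb differed by -1.22 (adjusted p 0.00211), the fractalkine receptor gene Cx3cr1 by -0.94 (adjusted p 0.000495) and Csf1r, the receptor for a macrophage growth factor, by -0.68 (adjusted p 0.000434). In whole ganglia, fewer cells of a type and less RNA per cell cannot be told apart, and the part of macrophages in the fall of the interferon-stimulated genes was not tested. Bst2 also marks plasmacytoid dendritic cells. Of the 6 measured markers of these cells, Bst2 among them, 5 were lower at 16 weeks and Siglech was higher by 0.06, with a median of -0.08, and Bst2 alone passed the threshold (2 of the 6, Ccr9 and Klk1, were under the brightness limit).

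**Figure D2:**
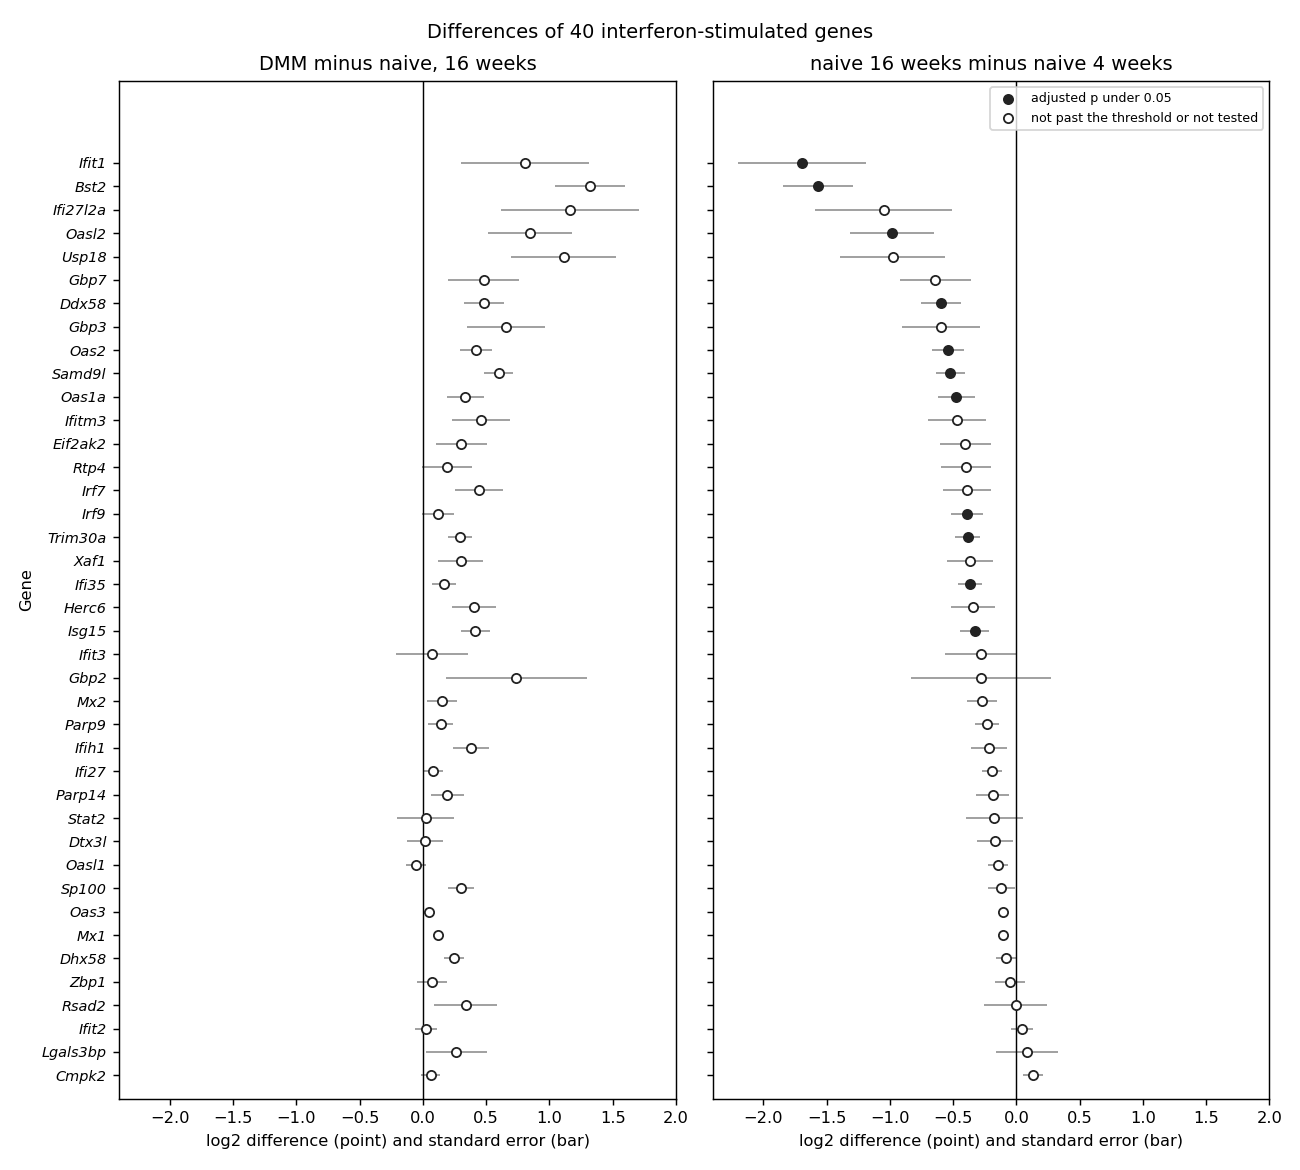
Log2 differences (points) with standard errors (bars) of the 40 genes for DMM minus naive ganglia at 16 weeks on the left and for naive ganglia at 16 weeks minus 4 weeks on the right, in the order of the right panel; filled points have an adjusted p under 0.05, and Oas3 and Mx1, which were not tested, have no bar. On the right 11 points are filled and 37 lie below 0; on the left none is filled and 39 lie above 0, and both panels use the same naive arrays of 16 weeks.

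At 16 weeks, when DMM mice were compared with naive mice of the same age, nearly all of the genes were higher in DMM ganglia, but none passed the threshold. Over the 40 genes 39 were higher, with a median difference of 0.30, against 0.01 over the genes tested. Adjusted p-values were 0.0911 at the lowest, and 0 of 38 genes were called, in a comparison that called 6 genes in all (0.0297%). Before adjustment, at p under 0.05, 16 of the 38 were higher and 0 lower, against 5.43% of genes tested called higher. The groups did not overlap for 11 of the 38, all higher in DMM ganglia, against 6.63% of genes tested. These naive arrays are those of the age comparison above, so the 2 comparisons share them.

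Samd9l had log2 levels of 8.43, 8.61 and 8.29 in DMM ganglia at 16 weeks, against 7.72, 7.88 and 7.94 in naive ganglia. All 3 DMM arrays were higher, by 1.51-fold (log2 difference 0.60, SE 0.12, adjusted p 0.0911). Replicate 3 was the lowest of the DMM arrays for Samd9l, and without that array the difference was 0.67 with an adjusted p of 0.0127. Bst2 had 7.56, 8.22 and 8.78, against 7.13, 6.84 and 6.63 in naive ganglia, again without overlap (1.32, SE 0.28, adjusted p 0.110).

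The next largest differences came with 1 high array, DMM replicate 3. Ifi27l2a had 5.81, 6.75 and 9.23 in DMM ganglia, against 6.14, 6.02 and 6.15 in naive ganglia (1.16, SE 0.54, adjusted p 0.567). Usp18 had 5.71, 6.67 and 8.21, against 5.51, 5.75 and 5.98 (1.11, adjusted p 0.516). Oasl2 had 8.10, 8.60 and 9.83, against 7.99, 8.02 and 7.99 (0.84, adjusted p 0.529). In each, replicate 1 lay near the naive arrays or below them, replicate 2 stood higher and replicate 3 highest.

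Ifit1 had 8.09, 8.77 and 10.80 in DMM ganglia, against 8.19, 8.45 and 8.60 in naive ganglia (0.81, adjusted p 0.673). Gbp3, a guanylate-binding GTPase of host defence, had 6.77, 7.09 and 8.27, against 6.80, 6.66 and 6.70 (0.66, adjusted p 0.568). Gbp2, of the same family, had 8.31, 8.33 and 8.80, against 7.92, 7.61 and 7.69 (0.74, adjusted p 0.727), with all DMM arrays above all naive arrays. Isg15 too was higher on every DMM array, at 5.15, 5.32 and 5.47, against 4.96, 4.86 and 4.87 (0.41, adjusted p 0.349).

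**Figure D3:**
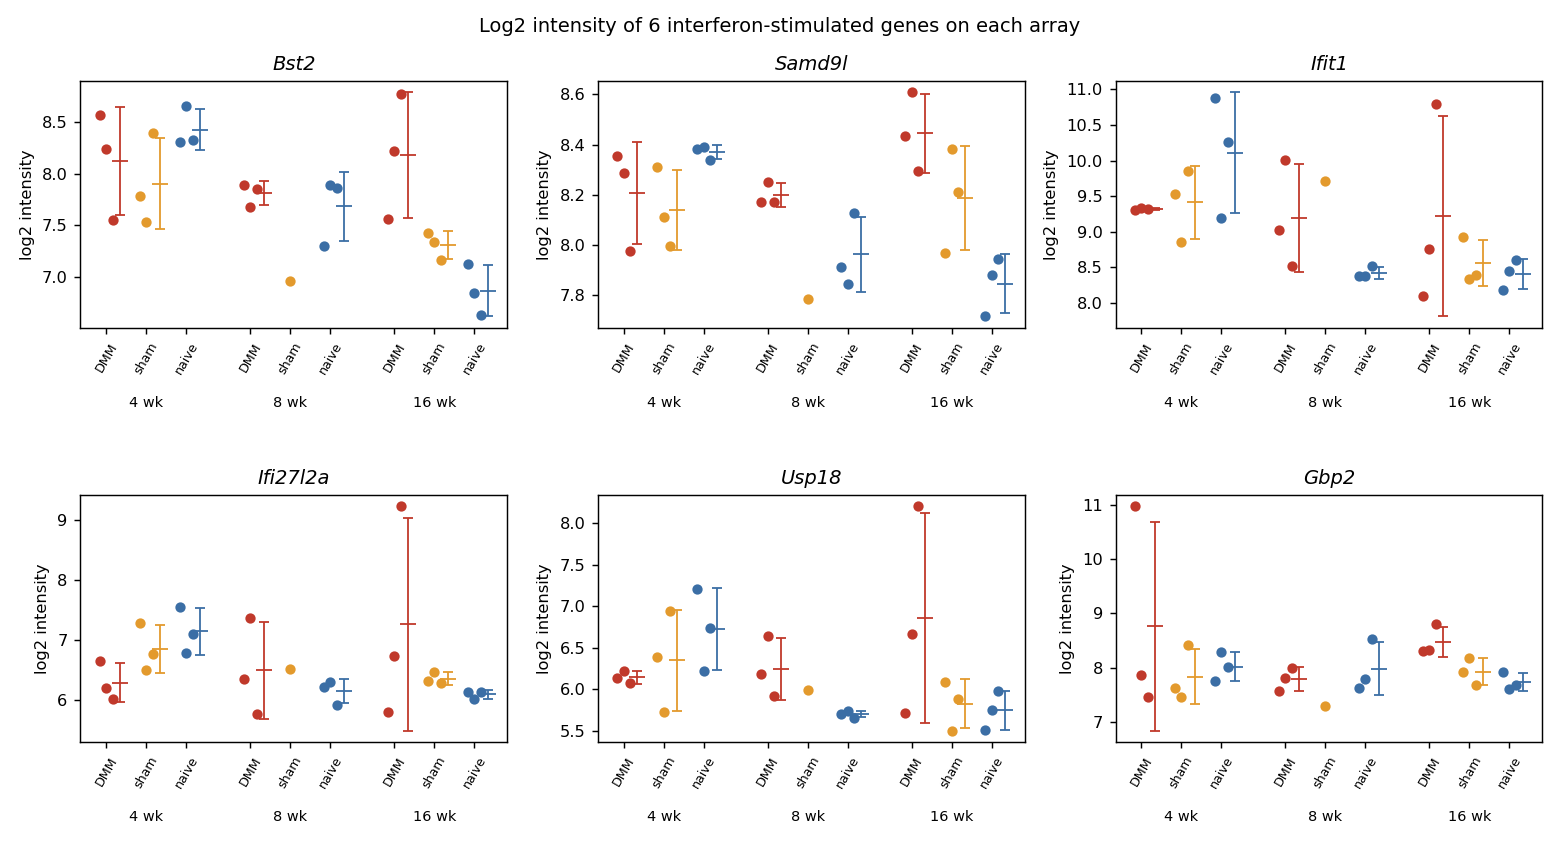
Log2 intensity of Bst2, Samd9l, Ifit1, Ifi27l2a, Usp18 and Gbp2 on each array (points), with group means and SDs (bars, n = 3; sham at 8 weeks is 1 array), by treatment and weeks after surgery; vertical axes differ and do not start at 0. At 16 weeks all DMM arrays of Bst2 (7.56 to 8.78) and Samd9l (8.29 to 8.61) lie above all naive arrays, while in Ifit1, Ifi27l2a and Usp18 DMM replicate 3 stands more than 1 unit above the other DMM arrays, and Gbp2 has its highest value, 10.97, on a DMM array of 4 weeks.

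Without DMM replicate 3 at 16 weeks, 28 of the 40 genes were higher than in naive ganglia, with a median difference of 0.11, against 0.01 over the genes tested. In the same fit 5 genes had an unadjusted p under 0.05, for which no share over all genes is given. That fit called 323 genes and, of the 38, only Samd9l. Leaving out any other array of the comparison left 36 to 39 genes higher, with medians from 0.27 to 0.45. Macrophage markers were higher as well, in 10 of 10 genes with a median difference of 0.47 and 0 past the threshold. Their mean level ran from 6.87 to 7.16 in DMM and from 6.46 to 6.58 in naive ganglia, and without DMM replicate 3 they were still higher in 10 of 10, with a median of 0.34. Of the other cell types, the satellite glia gene Fabp7 rose in DMM ganglia, with 17.74, 17.60 and 17.47 against 16.81, 16.93 and 16.84 in naive ganglia (0.74, adjusted p 0.0115), while the other 2 satellite glia markers were lower. The neutrophil genes S100a8 (1.47, adjusted p 0.561) and S100a9 (1.22, adjusted p 0.616) were higher on every DMM array than on any naive array without passing the threshold, 5 of 6 neutrophil markers were higher, and fibroblast and meningeal markers were higher in 5 of 5 with a median of 0.37. The part of these cells in the interferon-stimulated genes was not tested.

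By role, most genes of each list were higher in DMM than in naive ganglia at 16 weeks. The counts and differences by role include DMM replicate 3, without which 28 of the 40 genes were higher. The ISG15 system had 3 of 3 genes higher, from 0.41 for Herc6, a ligase for ISG15 in mice, to 1.11 for Usp18. The cytosolic sensors had 4 of 4 higher, with Ddx58 at 0.48, Ifih1 at 0.38, Dhx58 at 0.24 and Zbp1 at 0.07. In the OAS family 4 of 5 were higher, and Oasl1 was the single gene of the 40 that was lower (-0.06).

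The Mx and GBP GTPases were higher in 5 of 5, with Gbp7 at 0.48 and the Mx genes, which are defective in most laboratory strains, at 0.15 (Mx2) and 0.12 (Mx1). Smaller values were those of the PARP and DTX3L group, with a median of 0.14, and of Stat2 at 0.02. Among members with bright probe sets, Ifitm3, a membrane protein that blocks virus entry, differed by 0.46, the secreted glycoprotein gene Lgals3bp by 0.27 and Ifi27 by 0.08. Eif2ak2, the kinase PKR that halts translation, differed by 0.30, and its DMM levels of 10.22, 10.36 and 10.80 overlapped those of 9.96, 10.17 and 10.34 in naive ganglia. None of these passed the threshold. For Stat2, Mx1, Mx2, Lgals3bp and the sensor Zbp1, DMM replicate 3 was the only DMM array above all naive arrays. Stat2 had 10.07, 10.16 and 10.95 in DMM ganglia, against 10.43, 10.36 and 10.33 in naive ganglia. Mx2 had 5.33, 5.25 and 5.85, against 5.38, 5.28 and 5.32. Lgals3bp had 11.05, 11.42 and 12.25, against 11.42, 11.38 and 11.13.

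Against sham surgery the picture at 16 weeks was weaker. DMM ganglia were higher than sham ganglia in 36 of 40 genes, with a median difference of 0.23, against -0.01 over the genes tested. With no adjustment and p under 0.05, 9 of 38 were higher and 0 lower, against 1.78% of genes tested called higher, and 3 of 38 did not overlap, against 3.43%. After adjustment 0 of 38 genes were called (lowest adjusted p 0.672, with 1 gene called in all, or 0.00495%). Usp18 had 5.71, 6.67 and 8.21 in DMM ganglia, against 6.09, 5.51 and 5.89 in sham ganglia (1.03, adjusted p 0.725). Bst2, with 7.56, 8.22 and 8.78 in DMM ganglia, against 7.43, 7.33 and 7.16 in sham ganglia, was higher on all DMM arrays (0.88, adjusted p 0.672). Samd9l, which did not overlap between DMM and naive ganglia, overlapped here, with 8.43, 8.61 and 8.29 in DMM ganglia, against 7.97, 8.38 and 8.21 in sham ganglia. The mean level of the macrophage markers ran from 6.87 to 7.16 in DMM and from 6.63 to 6.83 in sham ganglia, and their part was not tested. Without DMM replicate 3 the count of genes higher was 26 of 40 and the median 0.06, against -0.02 over the genes tested. The unadjusted count was then 1, for which no share over all genes is given. The difference of Ifi27l2a was 0.90 (adjusted p 0.836) with that array and -0.08 without it, against sham levels of 6.31, 6.48 and 6.29.

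Sham ganglia lay nearer to naive ganglia at that time. They were higher in 28 of 40 genes, with a median of 0.09 (0.06 without sham replicate 1), and 0 of 38 genes were called, against 0.00495% of genes tested. Of all genes tested 57.4% were higher in sham ganglia, with a median of 0.02. At p under 0.05 before adjustment, 2 of 38 were higher, against 8.53%, and in 7 of 38 all sham arrays were above all naive arrays, against 12.2%. Samd9l had 7.97, 8.38 and 8.21 in sham ganglia, against 7.72, 7.88 and 7.94 in naive ganglia (0.34, adjusted p 0.300), and all sham arrays lay above the naive arrays. Bst2 was higher by 0.44 (adjusted p 0.618) and Ifi27l2a by 0.26 (adjusted p 0.917).

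The time course of DMM ganglia differed from that of naive ganglia in its values, although the test of that difference called no member. In DMM ganglia 27 of 40 genes were higher at 16 than at 4 weeks, with a median of 0.07, and 0 of 38 were called, against 2.91% of genes tested. Ifi27l2a had 5.81, 6.75 and 9.23 at 16 weeks, against 6.65, 6.21 and 6.03 at 4 weeks (0.97, adjusted p 0.355). Rsad2 had 7.52, 7.56 and 8.25, against 7.28, 7.17 and 7.07 (0.60, adjusted p 0.203), and Usp18 differed by 0.72 (adjusted p 0.375). Rsad2 was higher on every 16-week array. Without DMM replicate 3 at 16 weeks, 12 of 40 genes were higher, the median was -0.10 and the difference of Ifi27l2a was -0.02.

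In sham ganglia 27 of 40 genes were lower at 16 than at 4 weeks, with a median of -0.10, and 0 of 38 were called, against 1.81% of genes tested. The median was -0.02 without sham replicate 3 at 4 weeks and -0.20 without replicate 2 at 4 weeks. Ifit1 had 8.93, 8.34 and 8.40 at 16 weeks, against 9.54, 8.85 and 9.85 at 4 weeks (-0.86, adjusted p 0.382), which overlapped. Bst2 had 7.43, 7.33 and 7.16, against 7.78, 7.54 and 8.40, and was lower on every 16-week array (-0.60, adjusted p 0.252). Usp18 differed by -0.53 (adjusted p 0.534).

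The change of the DMM-minus-naive difference between 16 and 4 weeks was above 0 in 37 of 40 genes, with a median of 0.43, against 0.04 over the genes tested. It takes in the fall in naive ganglia reported above. The median at 16 against 4 weeks was -0.34 in naive ganglia and 0.07 in DMM ganglia (-0.10 without DMM replicate 3 at 16 weeks). At an unadjusted p under 0.05, 18 of 38 were higher and 0 lower, against 7.73% of genes tested called higher. After adjustment 0 of 38 passed, against 0.00495% of genes tested. The lowest adjusted p-values were 0.205 for Samd9l, with a change of 0.76, and 0.240 for Bst2, with a change of 1.63. Changes of Ifi27l2a (2.02) and Usp18 (1.69) were larger, with adjusted p-values of 0.413 and 0.377. Without DMM replicate 3 at 16 weeks the median was 0.23 and the lowest adjusted p 0.0525. The same change against sham was above 0 in 30 of 40 genes, with a median of 0.16 (0.01 without DMM replicate 3 at 16 weeks, 0.26 without DMM replicate 1 at 4 weeks), and 0 of 38 were called, against 0% of genes tested. At an unadjusted p under 0.05 limma called 1 of 38, against 5.82% of genes tested. Here Ifi27l2a changed by 1.46 (adjusted p 0.850), Usp18 by 1.24 (adjusted p 0.842) and Oasl2 by 0.85 (adjusted p 0.855).

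At 4 weeks most of the genes were lower after either surgery than in naive ganglia, without a call. The medians stayed below 0 when any 1 array was left out, but their size depended on single arrays. DMM ganglia were lower in 34 of 40 genes, with a median of -0.13 (28 of 40 and -0.07 without DMM replicate 3), and 0 of 38 were called, against 0.0099% of genes tested. Over the genes tested the median was -0.03, and 39.4% were higher. Ifit1 had 9.30, 9.34 and 9.32 in DMM ganglia, against 10.87, 9.20 and 10.26 in naive ganglia (-0.79, adjusted p 0.693). Ifi27l2a had 6.65, 6.21 and 6.03, all below the naive levels of 7.56, 6.78 and 7.11 (-0.86, adjusted p 0.689). In 7 of 38 genes the groups did not overlap and DMM ganglia were lower, against 11.3% of genes tested.

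Sham ganglia at 4 weeks were lower than naive ganglia in 38 of 40 genes, with a median of -0.19 (-0.07 without sham replicate 2), and 0 of 38 were called, against 0.332% of genes tested. The genes tested shifted the same way, with a median of -0.05 and 36.2% of them higher. Before adjustment, at p under 0.05, 5 of 38 were lower, against 11.2%. Ifitm3 had 11.36, 10.50 and 11.17 in sham ganglia, against 11.41, 11.83 and 11.48 in naive ganglia (-0.57, adjusted p 0.230). Ifit1 differed by -0.70 (adjusted p 0.527) and Bst2 by -0.53 (adjusted p 0.362). Of 10 macrophage markers, 4 fell in sham against naive ganglia (C1qc, Cd68, Csf1r and Mrc1), and the mean level of the list ran from 6.53 to 6.80 in sham and from 7.09 to 7.42 in naive ganglia. Their part was not tested.

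DMM and sham ganglia at 4 weeks did not separate. DMM ganglia were higher in 25 of 40 genes, with a median of 0.05, and 0 of 38 were called, against 0% of genes tested. That median was -0.04 without sham replicate 2 and -0.03 without DMM replicate 1. With no adjustment and p under 0.05, 0 of 38 were called, against 4.66% of genes tested. The largest difference was that of Gbp2 (0.93, adjusted p 0.986), which turned to -0.17 without DMM replicate 1. Ifi27l2a differed by -0.56 and Ifitm3 by 0.33 (adjusted p 0.986 for both).

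At 8 weeks DMM ganglia were higher than naive ganglia in 30 of 40 genes, with a median of 0.10 (0.02 without DMM replicate 2), and 0 of 38 were called, against 0.0594% of genes tested. Ifit1 had 9.03, 10.01 and 8.52 in DMM ganglia, against 8.38, 8.37 and 8.52 in naive ganglia (0.76, adjusted p 0.740). Usp18 had 6.18, 6.65 and 5.92, against 5.71, 5.74 and 5.66 (0.55, adjusted p 0.792), and was higher on every DMM array. Ifit3, a partner of Ifit1, went the other way, at 7.55, 7.35 and 7.40, against 7.68, 8.12 and 7.69 (-0.40, adjusted p 0.774). Replicate 2 of DMM was the highest of the 3 for both Ifit1 and Usp18.

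Against the lone sham array of 8 weeks, whose spread the fit took from the other groups, DMM ganglia were higher in 30 of 40 genes. The median was 0.09 (0.03 without DMM replicate 2), and 0 of 38 genes were called, against 0% of genes tested. At p under 0.05 before adjustment, 4 of the 38 were higher and 1 lower, against 8.49% of genes tested in either direction. Bst2 had 7.90, 7.68 and 7.86 in DMM ganglia, against 6.96 (0.85, adjusted p 0.574). Rsad2 had 8.42, 7.47 and 7.33, against 7.11 (0.63, adjusted p 0.679), and Ifitm3 10.99, 11.89 and 11.16, against 10.74 (0.60, adjusted p 0.656). Averaged over the 3 times, DMM minus naive was above 0 in 36 of 40 genes, with a median of 0.08 (0.03 without DMM replicate 3 at 16 weeks), and 0 of 38 were called, against 0.0495% of genes tested. Gbp2 (0.43), Bst2 (0.38) and Usp18 (0.36) had the largest averages, with adjusted p-values from 0.633 to 0.809.

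Array by array, a single array stood out. DMM replicate 3 at 16 weeks had the highest level of all 25 arrays in 22 of the 40 genes (55%), while 3.01% of the genes tested were highest there. On this array 17 genes were more than 0.5 above their own median over all arrays, against 1.15% of genes tested. More than 1 above it were 7 genes, for which no share over all genes was taken. Ifi27l2a stood at 9.23 there and at 7.56 at most on the other 24 arrays. Usp18 stood at 8.21 there and at 7.21 at most elsewhere, and Oasl2 at 9.83 there and at 9.26 at most elsewhere. Irf7, the transcription factor that amplifies type I interferon, stood at 6.65 there and between 5.32 and 5.94 elsewhere. Of the 18 genes that were not highest on it, Samd9l was highest on DMM replicate 2 at 16 weeks (8.61) and Oas2 on naive replicate 3 at 4 weeks (5.42).

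Other arrays were highest for fewer of the genes. Naive replicate 1 at 4 weeks was the highest for Ifit1 (10.87), Oas1a (6.45), Irf9 (6.96) and Ifi35 (6.98), which is 4 of 40 or 10%, no more than the 10.3% of genes tested that were highest there. DMM replicate 2 at 8 weeks, with 5.12% of genes tested, was the highest for Ifitm3 (11.89), Eif2ak2 (10.88) and Dtx3l (7.60), the ubiquitin ligase that pairs with PARP9. DMM replicate 1 at 4 weeks, with 4.47% of genes tested, was the highest for 5 genes (12.5%), among them Gbp2 at 10.97, against 7.30 to 8.80 on the other 24 arrays, and Gbp7 at 11.27. The Gbp2 difference between DMM and naive ganglia at 4 weeks was 0.75 (adjusted p 0.742) with that array and -0.36 without it. At the low end, sham replicate 2 at 4 weeks was the lowest of all arrays for 7 of the 40 genes, against 3.12% of genes tested, and its mean over the 40 genes was 7.15.

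**Figure D4:**
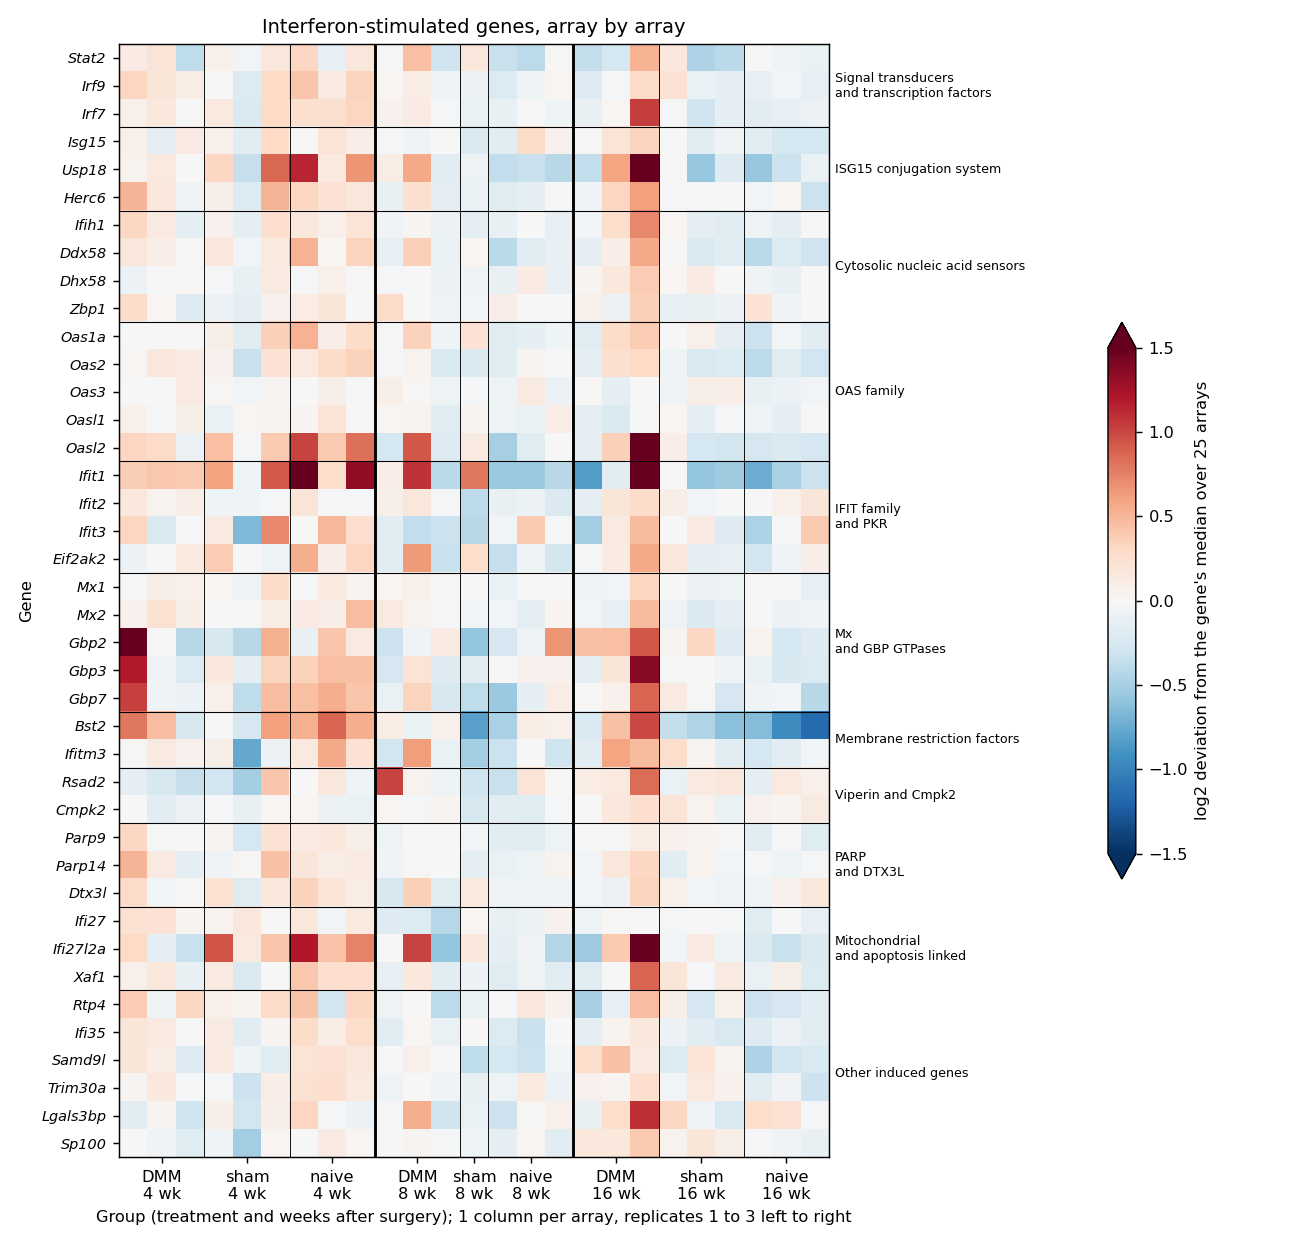
Each of the 40 genes (rows, grouped by role) on each of the 25 arrays (columns, grouped by treatment and weeks after surgery), coloured by its log2 deviation from its own median over all arrays, with the colour scale cut at 1.5 on either side. Replicate 3 of DMM at 16 weeks is red in most rows and the highest of all arrays in 22 of 40, whereas replicate 1 of DMM at 4 weeks is deepest red in the 3 Gbp rows.

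The profiles of these arrays were unlike by role. On DMM replicate 1 at 4 weeks the Mx and GBP group had a median deviation of 1.03, the IFIT family and PKR 0.24 and the OAS family 0.03. DMM replicate 3 at 16 weeks had 0.87, 0.52 and 0.30 for the same groups. Naive replicate 1 at 4 weeks had 0.12, 0.37 and 0.15. On each of these arrays the OAS median was the value of Oas2, a gene no brighter than the negative controls. The brighter Oasl2 deviated by 0.32 on DMM replicate 1 at 4 weeks, 1.59 on DMM replicate 3 at 16 weeks and 1.02 on naive replicate 1 at 4 weeks. On the same arrays Oas1a deviated by -0.01, 0.38 and 0.53. Within the Mx and GBP group, Gbp2, Gbp3 and Gbp7 deviated by 3.10, 1.19 and 1.03 on DMM replicate 1 at 4 weeks. Mx1 and Mx2 deviated by -0.02 and 0.06 on that array, and by 0.33 and 0.47 on DMM replicate 3 at 16 weeks. Genes that interferon gamma induces, kept in a list of their own with 17 measured, had medians of 0.65 on DMM replicate 1 at 4 weeks, 0.76 on DMM replicate 3 at 16 weeks and 0.07 on naive replicate 1 at 4 weeks. On the other 22 arrays that list lay between -0.14 and 0.16.

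Named genes of that list differed only in part between these DMM arrays, with Cxcl9 far apart and Igtp close. The chemokine gene Cxcl9 had 8.21 on DMM replicate 1 at 4 weeks, above every other array (4.12 to 6.07), and the GTPase genes Igtp and Irgm2 had 11.43 and 8.82 there. On DMM replicate 3 at 16 weeks Cxcl9 was at 5.70, Igtp at 11.30 and Iigp1, another of these GTPases, at 7.22, the highest of all arrays. Of 30 measured genes in a further list of type I targets, 12 were highest on DMM replicate 3 at 16 weeks and 2 on DMM replicate 1 at 4 weeks. Macrophage markers deviated by 0.35 on DMM replicate 3 at 16 weeks and by 0.20 on DMM replicate 1 at 4 weeks. Fibroblast and meningeal markers deviated by -0.70 on DMM replicate 3 at 16 weeks. The part of these cells in either profile was not tested.

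**Figure D5:**
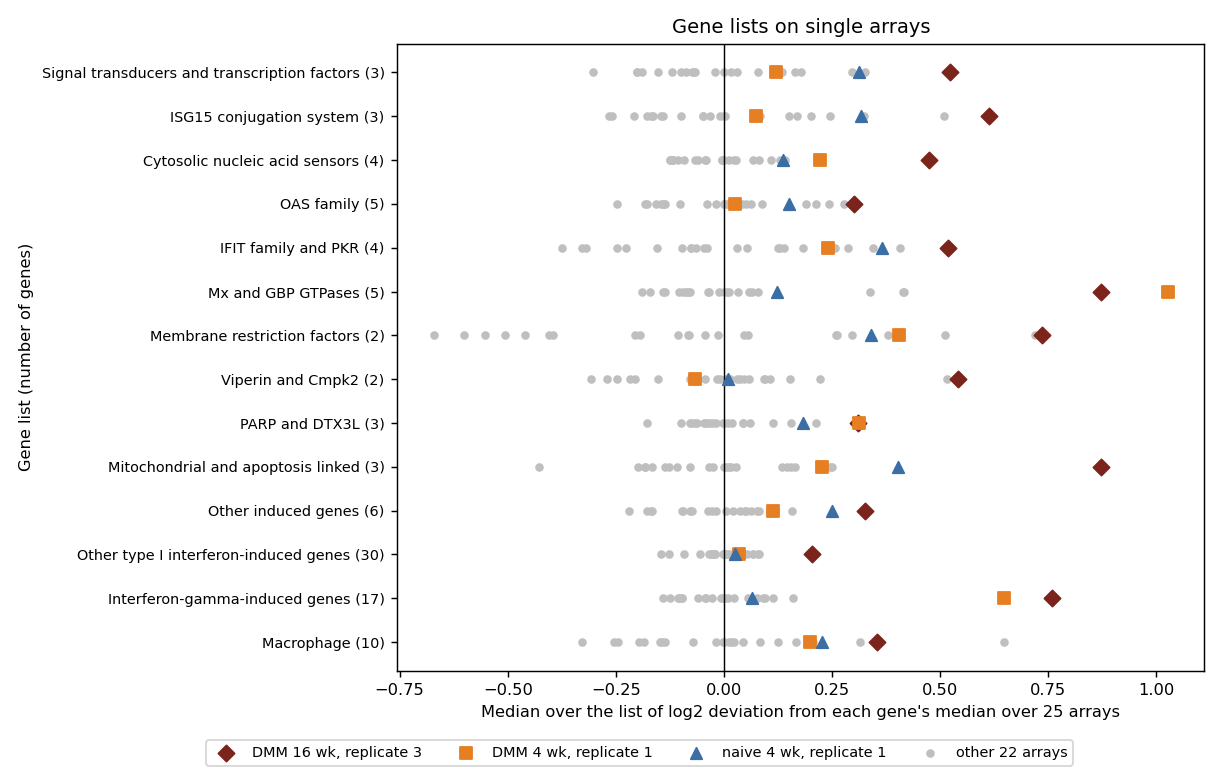
Median over each gene list of the log2 deviation from each gene's own median over 25 arrays, for 3 single arrays (large symbols) and the other 22 (grey points); the number of genes in each list is in brackets. The Mx and GBP list and the interferon-gamma list are far to the right on both DMM arrays marked. The OAS list is at 0.30 on DMM replicate 3 at 16 weeks and at 0.03 on DMM replicate 1 at 4 weeks. Both are the value of Oas2, a gene no brighter than the negative controls. On the latter array the Mx and GBP list is high through its Gbp genes, with Mx1 at -0.02 and Mx2 at 0.06.

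Upstream of these genes, 18 interferon ligand genes were measured and 4 were above the brightness limit (Ifna2, Ifna4, Ifnl2 and Ifnl3, with means of 4.60, 4.78, 5.33 and 5.73). Ifng and Ifnb1 were below it, with means of 3.77 and 4.51. Ifng lay between 3.50 and 4.08 on the 25 arrays, under the brightness limit on each, with 3.82 on DMM replicate 3 at 16 weeks and 3.83 on DMM replicate 1 at 4 weeks. Of 5 T cell markers measured, 1 was above it. The receptor genes were bright, with means of 11.50 for Ifnar1, 9.18 for Ifnar2, 10.64 for Ifngr1 and 11.78 for Ifngr2.

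Some of these upstream and target genes passed the threshold over time, in a comparison of naive ganglia that called 18.8% of all genes tested. In naive ganglia at 16 against 4 weeks, 2 of 8 receptor and kinase genes tested fell, Jak2 by 0.34 on the log2 scale (adjusted p 0.00763) and Ifngr2 by 0.21 (adjusted p 0.0423). Of 12 sensors and adaptors tested, the endosomal RNA receptors Tlr7 (-0.42, adjusted p 0.0405) and Tlr3 (-0.31, adjusted p 0.0245) fell. Of 7 negative regulators tested, Socs3 fell (-0.41, adjusted p 0.00874) and Pias1 rose (0.25, adjusted p 0.0299). Of 28 further type I targets tested, Ifi204, Pnpt1 and Trim21 fell, by 0.86, 0.37 and 0.35 on the log2 scale. Genes induced by interferon gamma had 0 of 16 past the threshold, with a median difference of -0.24. Together 9 of 81 genes tested on the 7 upstream and target lists passed the threshold, a smaller share than over all genes tested. In 6 fits that each left out 1 array, Jak2, Socs3, Ifi204 and Pnpt1 were called in 6, Tlr3 and Tlr7 in 3, Pias1 and Trim21 in 2 and Ifngr2 in 1.

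In DMM ganglia at 16 against 4 weeks, 5 of 81 genes tested on the same lists passed the threshold, against 2.91% of all genes tested. The receptor gene Ifngr1 rose (log2 difference 0.38, adjusted p 0.0211) and Ifngr2 fell (-0.35, adjusted p 0.0115). Ifngr1 had 10.82, 11.00 and 10.85 in DMM ganglia at 16 weeks, against 10.41, 10.60 and 10.50 at 4 weeks, and in sham ganglia it rose likewise (0.42, adjusted p 0.0230), as did Pias1 (0.31, adjusted p 0.0438). In DMM ganglia the adaptor gene Mavs (0.34, adjusted p 0.0486), the helicase gene Mov10 (0.22, adjusted p 0.0494) and Tapbp, which helps load peptides on MHC class I (0.37, adjusted p 0.0252), rose as well. These calls rested on single arrays: of 6 fits without 1 array, Ifngr2 was called in 5, Ifngr1 in 3, Mavs and Tapbp in 2 and Mov10 in 1, and over all genes 588 calls became 9 without DMM replicate 1 at 4 weeks. In sham ganglia the same fits called Ifngr1 in 2 of 6 and Pias1 in 0 of 6. Between DMM and naive ganglia at 16 weeks no gene of these upstream and target lists was past the threshold, and in the interferon-gamma list the lowest adjusted p was 0.324. There the interferon-gamma list had 16 of 17 genes higher with a median of 0.43, and the further type I targets had 29 of 30 higher with a median of 0.17. Without DMM replicate 3 these were 13 of 17 with a median of 0.14 and 23 of 30 with a median of 0.11.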

How the data were processed

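Total RNA of lumbar ganglia was labelled with biotin and run on 25 Affymetrix arrays by the standard protocol, per the labels. The authors deposited 1 log2 value per probe set and array; the log2 scale was read from the values (2.23 to 19.70), and for background correction, summary and normalization no source used here names a method. Of 72685 probe sets, 6729 are controls and 31080 carry 1 gene symbol in the platform annotation, 1670 several and 33206 none (not named here), and 841 symbols were updated. Each gene was represented by its brightest probe set. Groups were read from sample titles. The members, lists and tests were chosen with earlier results of these data known. The probe set of Ifi27 also carries Ifi27l1, a name of the same gene.

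One model with a mean per group was fitted to all 25 arrays with limma 3.58.1 (R 4.3.3, lmFit and eBayes) over the 20206 genes above the brightness limit, with 16 residual degrees of freedom, for 14 comparisons, and p-values were adjusted by the Benjamini-Hochberg method (threshold 0.05). Array number limits precision: the 95% interval of a typical gene reached 0.204 on either side between groups of 3. Tested on simulated data for DMM against naive ganglia at 16 weeks with 20206 genes, the fit recovered 65 of 100 genes shifted by 0.5 and 91 of 100 shifted by 1, with 8 unshifted genes called. The shifted genes were drawn from all genes tested, with independent noise. Recovery was not measured for the noisier interferon-stimulated genes, such as Bst2, Ifit1 and Ifi27l2a, whose standard errors are larger than those of a typical gene. Genes were named as the members past the threshold (up to 10 a comparison, by p), the 8 largest differences between DMM and naive ganglia at 16 weeks and the 3 largest in each other comparison, and the brightest member of each role. Other genes were named for their place on a list. Alternatives were quantile normalization, 2 other brightness limits, fits on the compared arrays alone, a replicate block, a trended robust prior, array weights and each array left out.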

Additional observations from a re-analysis of the deposited data

How the results depend on the processing

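In 13 of 14 comparisons 0 of the 38 genes passed, so that their counts could only rise; Samd9l was the 1 gene that any alternative added there. Between DMM and naive ganglia at 16 weeks, 1 of the 38 genes (Samd9l, adjusted p 0.0346) passed with array weights, and 0 to 1 passed when an array was left out. In naive ganglia at 16 against 4 weeks the count of 11 became 18 when only the arrays compared were fitted, 8 with no brightness limit, 9 with a stricter one, 14 after quantile normalization and 13 with array weights, and it ran from 5 to 12 when an array was left out. Bst2, Samd9l, Trim30a and Ifi35 passed in each of these fits, and Oas2 in each but that with the stricter limit, under which it was not tested. The median difference there was -0.41 after quantile normalization, against -0.34. Leaving out 1 array turned the median over the 40 genes from 0.05 to -0.04 between DMM and sham ganglia at 4 weeks and from 0.07 to -0.10 in DMM ganglia at 16 against 4 weeks, and 4 differences of named genes: Gbp2 between DMM and naive ganglia at 4 weeks ran from -0.36 to 1.40 and between DMM and sham ganglia at 4 weeks from -0.17 to 1.59, and Ifi27l2a between DMM and sham ganglia at 16 weeks from -0.083 to 1.63 and in DMM ganglia at 16 against 4 weeks from -0.0163 to 1.69. The cause was not tested. Counts over all genes moved more: DMM ganglia at 16 against 4 weeks called 588 genes, but from 4 with only the arrays compared to 1250 after quantile normalization, and sham against naive ganglia at 4 weeks called 67 genes, but 116 after quantile normalization, 3 with no brightness limit, 145 with a stricter one, 0 with only the arrays compared, 5 with the replicate block and 632 with array weights. The replicate numbers are names and no pairing in the labels: of 21 pairs of same-numbered arrays, 8 correlated over 0.1 in their deviations from group means (-0.36 to 0.32). With the replicate block 10 of the 11 genes remained in naive ganglia, and Oasl2 was lost (adjusted p 0.0569). Genes at the level of the negative control probe sets (Isg15, Oas2, Oasl1, Zbp1, Dhx58) have the least signal over background.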
